A study of Homo sapiens with 24 samples.

Results

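The genes described here are the transcription factor ATF4, regulators and targets of its stress response, and cytosolic aminoacyl-tRNA synthetases often induced with them. They were taken by symbol from a list of 39 genes, of which 37 had a value among the 12547 endogenous genes of the expression table, while CHAC1 and STC2 were not analysed here. The 37 fell into 10 stress response regulators, 8 enzymes of amino acid and one-carbon synthesis, 5 amino acid transporters and 14 genes of tRNA charging and export. The genes were chosen by name and function, in a list drawn up with earlier results of these data known.

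The study followed mRNA abundance in U2OS cells, a human osteosarcoma line, by poly(A) RNA sequencing with external RNA (ERCC) spike-ins. All 12 groups received actinomycin D at 5 µg/mL, which blocks transcription, together with sodium arsenite at 200 µM, which causes oxidative stress, and were collected at 0, 4 or 8 h. The 4 genotypes were sgNS+EV, taken here as the control, sgQKI+EV, in which the guide targets the RNA-binding protein QKI, and sgQKI cells carrying QKI7-WT or QKI7-△KH, an isoform of QKI in its wild-type form and in a form whose name marks a change of the RNA-binding KH domain. Each group had 2 libraries, 24 in all, and no label says that they came from separate cultures, so each p-value measures the spread between these libraries, which may be technical.

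Cells that lack amino acids or carry unfolded or damaged proteins phosphorylate the initiation factor eIF2 through kinases such as EIF2AK3 (PERK), which lowers general translation and raises that of ATF4. ATF4 pairs with C/EBP family partners on composite C/EBP-ATF response elements and switches on genes for amino acid synthesis, amino acid uptake and tRNA charging. It also switches on feedback regulators, among them PPP1R15A, which brings a phosphatase to eIF2, and DDIT3 (CHOP), a transcription factor linked to cell death. Arsenite is a classical activator of this response, but actinomycin D was given with it, so the values were taken to follow mRNA already present. How complete the block was is not known from these data, and some genes read higher at a later time.

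The promoter letters of the response element are shown for the genes that carry them. The search letters were TGATGNAA on either strand in the 250 bases before each RefSeq start (GRCh38.p14). Of 31 measured genes with a promoter entry, 6 held them, against 2.2% of the 9834 genes of the table that had an entry (216 genes) and 3.89% of all 27305 genes searched (1061 genes). Each window is printed on the strand of its gene with the match in capitals, and a match written TTGCATCA or TTTCATCA lies on the opposite strand. The windows of CEBPG, IARS, SLC1A5, GARS and ASNS lie inside the GENCODE span of their gene, and that of AARS lies before it. The 250 bases searched for these genes overlapped GENCODE exons by 33 bases (CEBPG) to 197 bases (GARS). A match before a RefSeq start is therefore not always upstream of the gene.

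CEBPG, chr19:33374061-33374088 (+): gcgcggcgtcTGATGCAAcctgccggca
IARS, chr9:92293698-92293720 (-): tttcagcgcgTTGCATCAcctcc
SLC1A5, chr19:46784894-46784921 (-): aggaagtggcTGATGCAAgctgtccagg
GARS, chr7:30594835-30594862 (+): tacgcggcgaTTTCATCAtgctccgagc
AARS, chr16:70289676-70289703 (-): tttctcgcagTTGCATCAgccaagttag
ASNS, chr7:97872459-97872486 (-): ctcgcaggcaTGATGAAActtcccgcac

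CEBPG encodes a C/EBP partner of ATF4, ASNS the enzyme that makes asparagine, SLC1A5 a glutamine transporter, and IARS, AARS and GARS the isoleucyl-, alanyl- and glycyl-tRNA synthetases. A match is a description of the letters in that window and does not show that a factor bound there.

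The endogenous genes of a library added up to 690431 to 1367862 units of spike-in-normalised signal, and its spike-ins to 11485 to 11940 units. The read depth is unknown. Replicates correlated across genes with r from 0.9889 to 0.9982, the lowest being the QKI7-WT pair at 4 h, which stood apart from the other pairs. QKI itself (chr6:163414000-163578596, plus strand, GRCh38) read 59.98 and 48.19 at 0 h with sgNS+EV against 35.98 and 32.66 with sgQKI+EV. At 0 h it read 60.43 and 46.28 with QKI7-WT and 47.55 and 50.17 with QKI7-△KH. At 8 h it read 24.05 and 21.95 with sgNS+EV and 10.61 and 11.67 with sgQKI+EV. The 8 h values were 18.7 and 17.97 with QKI7-WT and 17.83 and 19.05 with QKI7-△KH. Of the bone and mesenchymal markers checked, 8 of 10 were measured, summing to 3516 to 6261 per library, whereas 2 of 7 epithelial markers were measured, summing to 5.21 to 18.1, although the labels call the cells epithelial. VIM made up most of the first sum, at 2503.59 to 4359.63, while RUNX2 read 3.82 to 19.39 and TNFRSF11B 1.79 to 21.56. How far the signal can be compared between genes is not known. None of the 7 blood cell markers was measured, and of 4 hepatocyte markers only SERPINA1 was, at 131.9 to 201.1.

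The first question was how long these mRNAs lasted in control cells under the transcription block. The regulators were lost fastest and the synthetases and synthesis enzymes were retained. After 8 h in sgNS+EV cells a median of 21.4% of the 0 h signal was left for the regulators (7.08% to 69.4%), 48.3% for the transporters (10.7% to 79.7%), 83.5% for tRNA charging and export (71.9% to 99.7%) and 88.2% for the synthesis enzymes (61.1% to 99.8%). The median over all genes was 58.5%. At 4 h the medians were 41.3%, 64.5%, 92.3% and 82.7% in the same order, against 79.2% over all genes. In bulk libraries, fewer cells and less RNA per cell cannot be told apart.

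Differences were tested with limma on log2(signal + 1), a scale that understates the change of low genes, with Benjamini-Hochberg adjustment over all 12547 genes, and a gene was counted as changed at an adjusted p under 0.05. Between 0 and 8 h, 29 of the 37 genes fell, against 88.2% of all genes, and in limma 0 rose, also at an unadjusted p under 0.05. All 37 fitted changes lay below 0, the smallest being those of PSAT1 and YARS. The median log2 change was -0.33, against -0.70 for all genes. By role, 10 of 10 regulators, 5 of 5 transporters, 11 of 14 genes of tRNA charging and export and 3 of 8 synthesis enzymes fell, with median log2 changes of -2.08, -1.04, -0.26 and -0.18. PSAT1, YARS, CARS, ASNS, AARS, PHGDH, PSPH and PYCR1 did not pass the test.

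**Figure D1:**
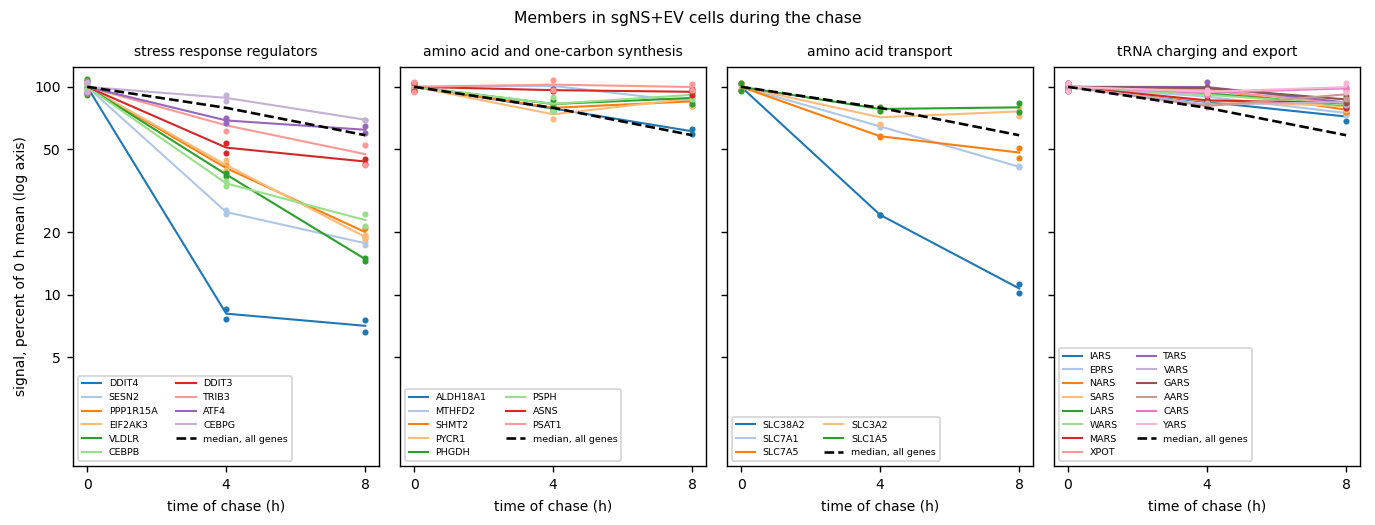
Signal of the 37 genes in sgNS+EV cells at 0, 4 and 8 h, as percent of each gene's 0 h mean on a log axis, with 1 panel per role; points are libraries, lines group means and the dashed line the median of all genes. DDIT4 (7.08% left at 8 h) and SLC38A2 (10.7%) lie at the bottom, and the group means of the tRNA genes stay at 71.9% or above.

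DDIT4 (chr10:72273920-72276036, plus strand), also called REDD1, which restrains the growth kinase mTORC1, was lost fastest of the 37 genes. In control (sgNS+EV) cells it read 159.6 and 163.8 at 0 h, 12.4 and 13.8 at 4 h, and 12.2 and 10.7 at 8 h. The 0 h libraries stood far above all later ones, and the 4 h and 8 h libraries were close to each other. The log2 change over 8 h was -3.71 ± 0.10 (SE; limma adjusted p = 8.29e-18), and 7.08% left gave DDIT4 rank 24 from the lowest of 12547 genes.

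SLC38A2 (chr12:46358189-46372867, minus strand), the SNAT2 transporter of small neutral amino acids, read 266.9 and 250.2 at 0 h, 62.7 and 62.4 at 4 h, and 29.2 and 26.2 at 8 h in sgNS+EV cells. Unlike DDIT4 it kept falling between 4 and 8 h, with no overlap between any of the 3 times. The change over 8 h was -3.18 ± 0.09 on the log2 scale (limma adjusted p = 1.49e-17), and 10.7% left gave it rank 44 of 12547.

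A further set of regulators lost most of its signal. The leucine sensor SESN2 changed by -2.22 ± 0.11 on the log2 scale, PPP1R15A by -2.20 ± 0.11, the eIF2 kinase EIF2AK3 by -2.10 ± 0.12, the lipoprotein receptor VLDLR by -2.08 ± 0.16 and the transcription factor CEBPB by -2.07 ± 0.11. PPP1R15A, for example, read 43.1 and 40.6 at 0 h, 17.6 and 16.4 at 4 h, and 7.94 and 8.79 at 8 h. For these genes between 14.8% (VLDLR) and 22.9% (CEBPB) was left. The cationic amino acid transporter SLC7A1 (-1.23 ± 0.07), DDIT3 (-1.09 ± 0.14), the leucine transporter SLC7A5 (-1.04 ± 0.11) and the pseudokinase TRIB3 (-0.99 ± 0.12) fell less, with 41.2% to 48.3% left. DDIT3 and the methionyl-tRNA synthetase gene MARS overlap at their 3′ ends on opposite strands (DDIT3 at chr12:57516588-57521737 on the minus strand, MARS at chr12:57475445-57517569 on the plus strand). How the counting used strand is not given in the sources used here, so both genes' values are uncertain.

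ATF4 (chr22:39519695-39522685, plus strand) lasted longer than most of the other regulators. Its signal was 458.8 and 522.1 at 0 h, 346.5 and 329.4 at 4 h, and 292.7 and 316.8 at 8 h in sgNS+EV cells. Each time lay below the one before it with no overlap. The log2 change was -0.68 ± 0.08 (limma adjusted p = 1.07e-07), close to the median of all genes, and 62.1% was left. CEBPG fell by 0.51 on the log2 scale, with 69.4% left.

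Among the synthesis enzymes the fall was small. ALDH18A1, which starts proline synthesis, fell most, from 86.5 and 89.3 at 0 h to 52.1 and 55.3 at 8 h, a log2 change of -0.70 ± 0.07. MTHFD2, a mitochondrial enzyme of the folate cycle, changed by -0.24 ± 0.07 and SHMT2, which splits serine to feed that cycle, by -0.23 ± 0.11. ASNS (chr7:97852118-97872542, minus strand) held at 123.5 and 134.6 at 0 h and 117.6 and 126.6 at 8 h, with overlapping libraries. PSAT1 (chr9:78297143-78330093, plus strand), an enzyme of serine synthesis, read 53.7 and 48.1 at 0 h and 52.3 and 49.3 at 8 h, and 99.8% was left. Both lay among the most retained mRNAs, ASNS at the 96.1 percentile and PSAT1 at the 97.7 percentile of all genes by percent left.

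The tRNA genes formed a narrow band. The isoleucyl-tRNA synthetase gene IARS fell most, from 185.0 and 198.0 at 0 h to 131.7 and 143.9 at 8 h (log2 change -0.47 ± 0.08). It was followed by EPRS, for glutamate and proline (-0.41 ± 0.07), and NARS, for asparagine (-0.36 ± 0.06). YARS, for tyrosine, read 119.5 and 131.5 at 0 h and 119.1 and 131.0 at 8 h, and CARS, for cysteine, kept 98.4%. XPOT, the exporter of tRNA from the nucleus, fell by 0.26 on the log2 scale.

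These directions depended on the spike-in scale for the retained genes and not for the fastest ones. The median log2 change of all genes over 8 h in sgNS+EV cells was -0.70 on the spike-in scale and -0.29 when each library was scaled to its own total. On library totals 16 of the 37 genes were higher and 13 lower, with 10 of 14 tRNA genes and 6 of 8 synthesis enzymes higher. After quantile normalisation 20 were higher, 13 of them tRNA genes, and 10 lower. The shares of all genes higher or lower on these scales are not given here, so these counts have no background beside them. ATF4, DDIT4, PPP1R15A, SESN2, EIF2AK3, CEBPB, VLDLR, SLC7A5, SLC7A1 and SLC38A2 were lower on each of the 3 scales. With each library of the compared groups left out in turn, 23 to 29 of the 37 genes passed the threshold.

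The loss was not spread evenly over the 2 intervals. In sgNS+EV cells 24 genes were lower at 4 h than at 0 h (59.8% of all genes were) and 19 were lower at 8 h than at 4 h (64.9%). The second interval's log2 change minus the first's was higher than 0 for 9 genes, against 7.62% of all genes in that direction, and in limma lower than 0 for 0 (2 at an unadjusted p under 0.05). PYCR1, AARS and PSPH read higher at 8 h than at 4 h (88.0% against 73.8%, 92.0% against 80.8% and 91.6% against 82.7% of the 0 h mean), and the other 6 read lower at each later time. DDIT4 led with a difference of 3.35 on the log2 scale, since its change was -3.53 in the first interval alone. SESN2 (1.42), CEBPB (0.95), SLC38A2 (0.88), DDIT3 (0.70), PYCR1 (0.69), SLC7A5 (0.52), AARS (0.49) and PSPH (0.41) followed. DDIT4, SESN2 and SLC38A2 stayed past the threshold with each library left out in turn.

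In the other 3 genotypes too the regulators kept least of their 0 h signal and the transporters came next. Over 8 h, 36 genes fell in sgQKI+EV cells (90.5% of all genes fell), 35 with QKI7-WT (90.0%) and 36 with QKI7-△KH (90.6%). The median log2 changes of the 37 genes were -0.58, -0.45 and -0.51, against -0.82, -0.77 and -0.77 for all genes. The regulators' median percent left was 16.5% in sgQKI+EV cells, 19.1% with QKI7-WT and 17.6% with QKI7-△KH, and that of the transporters was 38.2%, 44.7% and 41.7%. The tRNA genes kept 70.8%, 75.2% and 73.5% and the synthesis enzymes 69.9%, 77.0% and 75.4%, so these roles changed places in sgQKI+EV cells, against all-gene medians of 53.3%, 55.2% and 55.9%. From 0 to 4 h 23 genes were lower in sgQKI+EV (63.8% of all genes) and 24 in QKI7-△KH cells (73.6%). From 4 to 8 h 35 were lower in sgQKI+EV (79.2%), 34 with QKI7-WT (83.7%) and 30 with QKI7-△KH (58.2%), where DDIT4 rose by 0.26 on the log2 scale. On library totals the counts of genes changed over 8 h were 20, 20 and 22.

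**Figure D2:**
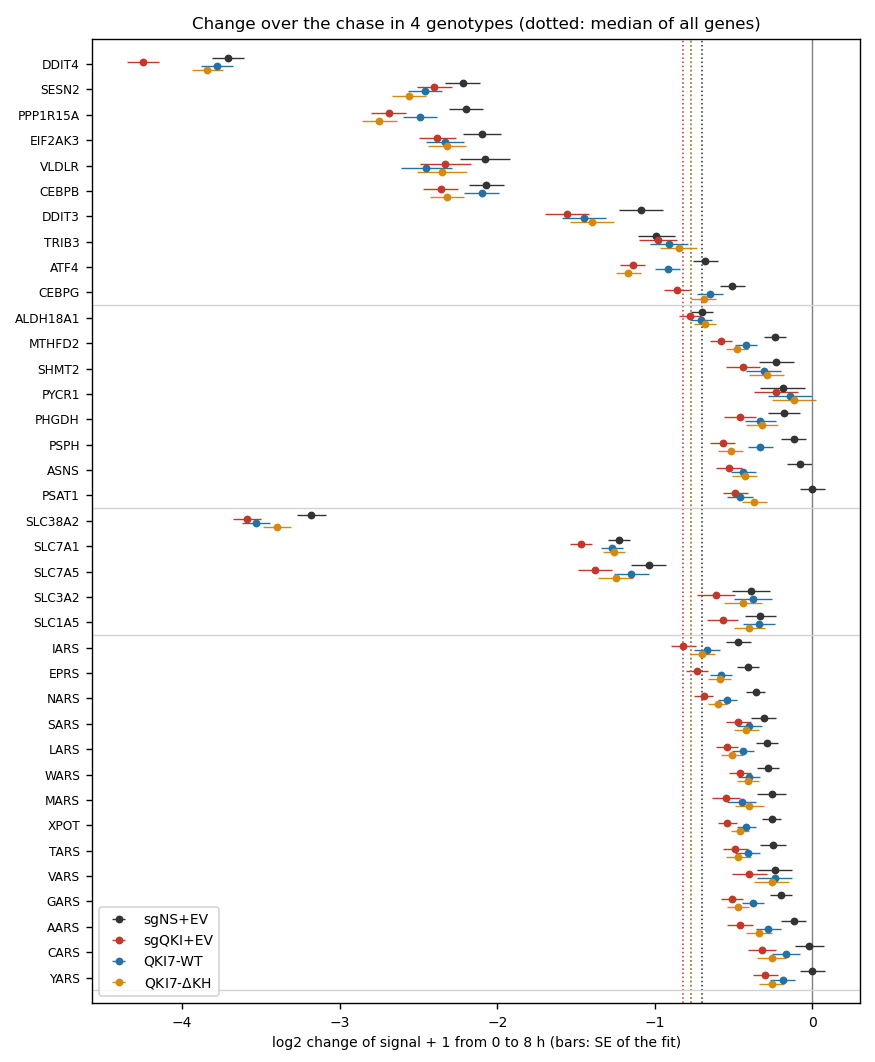
Log2 change of signal + 1 from 0 to 8 h for each gene, ordered by role and by its change in sgNS+EV cells, in the 4 genotypes; bars are SE of the fit, and dotted lines are the medians of all genes. DDIT4 (-3.71 in sgNS+EV, -4.25 in sgQKI+EV) and SLC38A2 (-3.18 and -3.59) stand apart on the left, and the tRNA genes lie to the right of most medians.

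The second question was whether the genes differed between sgQKI+EV and sgNS+EV cells before any loss. At 0 h, DDIT4 was the only 1 of the 37 that was lower (1.37% of all genes were lower) and MTHFD2 the only 1 that was higher (0.183%). DDIT4 read 159.6 and 163.8 with sgNS+EV against 117.5 and 109.4 with sgQKI+EV, and these do not overlap. The log2 difference was -0.51 ± 0.10 (limma adjusted p = 0.00762). MTHFD2 (chr2:74198562-74217565, plus strand) was 237.6 and 244.8 in sgNS+EV and 294.1 and 294.4 in sgQKI+EV cells, again without overlap, a log2 difference of 0.29 ± 0.07 (limma adjusted p = 0.0409). Both passed on each of the 3 scales. With 1 library left out, DDIT4 passed in 1 of 4 fits, without the sgQKI+EV replicate 1, and MTHFD2 in 0 of 4, with adjusted p up to 0.187 and 0.342.

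DDIT4 was also lower at 0 h in both genotypes that carry a QKI7 construct in sgQKI cells, compared with the same sgNS+EV libraries. It read 103.7 and 111.3 with QKI7-WT (log2 difference -0.59 ± 0.10, limma adjusted p = 0.00186; 1.35% of all genes were lower) and 107.0 and 103.4 with QKI7-△KH (-0.62 ± 0.10, adjusted p = 0.000614; 1.22%). All 6 libraries with the QKI guide lay below both sgNS+EV libraries. The 3 comparisons share those control libraries, so they are not independent of each other. Without the QKI7-WT replicate 1 the adjusted p for QKI7-WT was 0.0527.

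PSAT1 was higher with QKI7-WT than in sgNS+EV cells at 0 h, at 72.6 and 63.0 against 53.7 and 48.1 (log2 difference 0.41 ± 0.08, limma adjusted p = 0.0132), with 0.271% of all genes higher. It passed in 2 of 4 fits with 1 library left out, and not without the sgNS+EV replicate 2 (adjusted p = 0.232) or the QKI7-WT replicate 1 (0.255), where neither PSAT1 nor DDIT4 passed. With QKI7-△KH, 11 of the 37 genes were higher (10.2% of all genes were): MTHFD2 (0.47 on the log2 scale), SLC7A5 (0.46), PSAT1 (0.44), PSPH (0.36), TARS (0.35), GARS (0.32), YARS (0.30), NARS (0.27), LARS (0.23), SLC7A1 (0.23) and XPOT (0.20). MTHFD2 read 344.1 and 326.7 in the QKI7-△KH libraries, above every sgNS+EV and sgQKI+EV library. DDIT4, MTHFD2, PSAT1, SLC7A5, GARS, TARS and YARS passed on each of the 3 scales, and DDIT4 and MTHFD2 with each library left out in turn.

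At 4 h the genes that differed between sgQKI+EV and sgNS+EV cells went in both directions. Of the 37 genes, 9 were lower (34.0% of all genes were) and 8 higher (6.74%), and the median log2 difference was -0.01 against -0.15 for all genes. The lower ones were mostly regulators: DDIT4 (-1.17 ± 0.10, limma adjusted p = 4.33e-07), EIF2AK3 (-0.62), DDIT3 (-0.62), PPP1R15A (-0.54), SESN2 (-0.30) and CEBPG (-0.27), with the transporter SLC38A2 (-0.74) and the tRNA genes XPOT (-0.21) and NARS (-0.20). The higher ones were 3 transporters, SLC7A5 (0.51), SLC1A5 (0.50) and SLC3A2 (0.48), 2 synthesis enzymes, PYCR1 (0.43) and SHMT2 (0.32), and 3 synthetases, VARS (0.35), MARS (0.26) and YARS (0.20).

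SLC7A5 and SLC3A2 encode the subunits of the LAT1 exchanger of large neutral amino acids. SLC7A5 read 92.7 and 94.0 in sgNS+EV and 143.4 and 123.7 in sgQKI+EV cells at 4 h, and SLC3A2 103.8 and 119.8 against 167.7 and 145.8. SLC1A5 read 132.1 and 137.8 against 207.8 and 177.2. In all 3 the libraries did not overlap between genotypes at 4 h. At 8 h SLC7A5 overlapped, at 73.7 and 82.2 in sgNS+EV and 75.5 and 69.9 in sgQKI+EV cells, and no difference of the 3 genes passed the test. SLC38A2 went the other way, with 62.7 and 62.4 in sgNS+EV and 40.1 and 34.1 in sgQKI+EV cells at 4 h, and 29.2 and 26.2 against 17.9 and 18.6 at 8 h. EIF2AK3 was also lower at 4 h, with 7.81 and 6.97 in sgNS+EV and 4.63 and 4.27 in sgQKI+EV cells. DDIT3, DDIT4, PPP1R15A, EIF2AK3, SLC7A5, SLC1A5 and SLC38A2 passed with each library left out, and the count of the 37 fell to 7 without the sgNS+EV replicate 1. Of the 17 genes, 14 passed on each of the 3 scales.

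At 8 h the difference was in 1 direction. In sgQKI+EV cells 26 of the 37 genes were lower than in sgNS+EV cells (34.0% of all genes were). In limma 0 were higher, also at an unadjusted p under 0.05, and all 37 fitted differences lay below 0. The median log2 difference was -0.26, against -0.20 for all genes. By role, 7 of 10 regulators, 6 of 8 synthesis enzymes, 2 of 5 transporters and 11 of 14 tRNA genes were lower. On library totals and after quantile normalisation 6 genes were lower and 1 higher, and ATF4, DDIT4, PPP1R15A, ASNS, SLC38A2 and EPRS were the genes lower on each of the 3 scales.

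**Figure D3:**
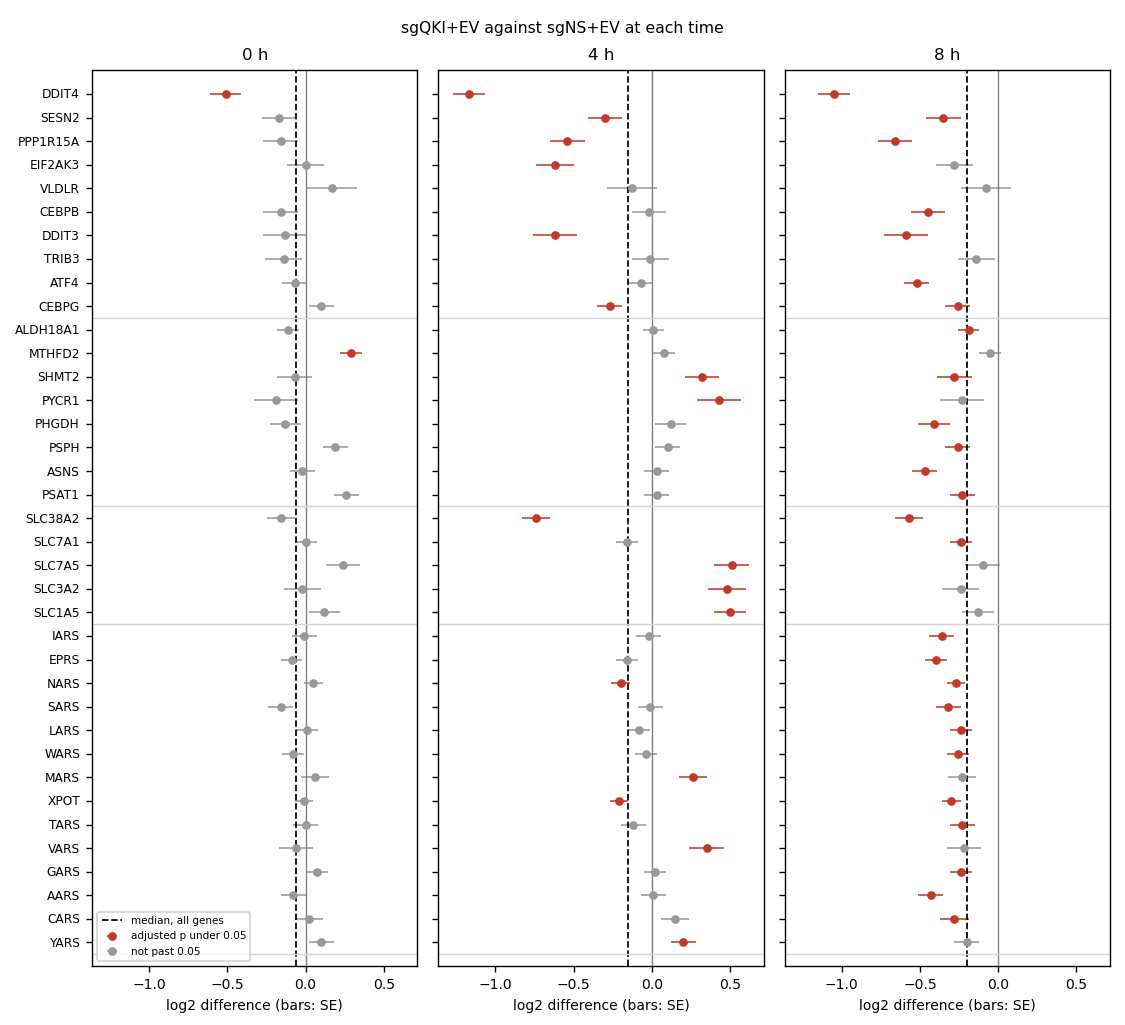
Log2 difference of sgQKI+EV from sgNS+EV at 0, 4 and 8 h for each gene; bars are SE, red points have a limma adjusted p under 0.05 and the dashed line is the median of all genes. At 0 h 2 genes are red, at 4 h 17 on both sides of 0, and at 8 h 26, all below 0.

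DDIT4 was 12.2 and 10.7 in sgNS+EV and 5.44 and 4.61 in sgQKI+EV cells at 8 h, a log2 difference of -1.05 ± 0.10 (limma adjusted p = 6.91e-07). ATF4 was 292.7 and 316.8 against 218.3 and 204.8, a difference of -0.52 ± 0.08 (adjusted p = 0.000147). ASNS was 117.6 and 126.6 against 92.2 and 83.8, a difference of -0.47 ± 0.08 (adjusted p = 0.00043). In none of the 3 genes did the libraries of the genotypes overlap at 8 h. At 4 h the ATF4 and ASNS libraries of these genotypes did overlap, and their differences were -0.07 and 0.03 on the log2 scale, not past the threshold.

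PPP1R15A differed by -0.66 on the log2 scale at 8 h, DDIT3 by -0.59, SLC38A2 by -0.57, CEBPB by -0.45, AARS by -0.43, PHGDH, the first enzyme of serine synthesis, by -0.41, EPRS by -0.40, IARS by -0.36 and SESN2 by -0.35. AARS read 106.4 and 117.4 in sgNS+EV and 85.2 and 80.8 in sgQKI+EV cells. EPRS read 96.9 and 102.2 against 76.9 and 73.0. The smallest differences were those of MTHFD2 (-0.05) and VLDLR (-0.08), and neither passed the test. Of the 26 genes, 10 passed with each library left out in turn, and the count fell to 11 without the sgQKI+EV replicate 2 and to 12 without the sgNS+EV replicate 2.

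**Figure D4:**
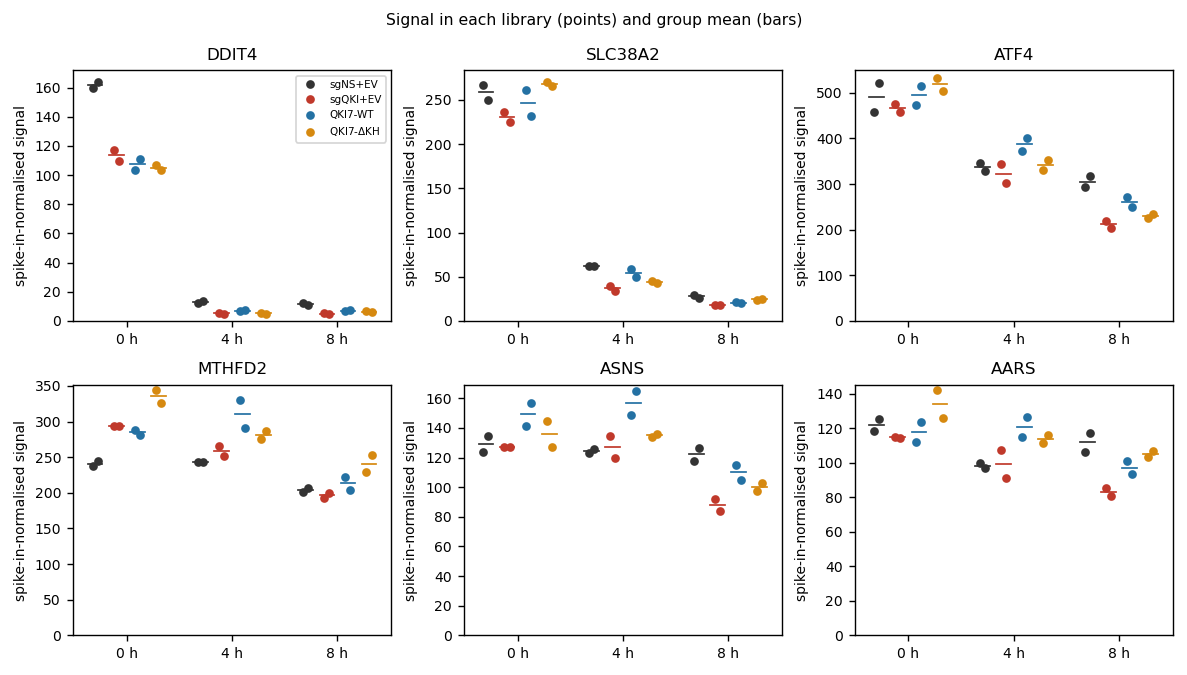
Spike-in-normalised signal of DDIT4, SLC38A2, ATF4, MTHFD2, ASNS and AARS in each library (points) with group means (bars) for the 4 genotypes at 0, 4 and 8 h, on axes starting at 0. DDIT4 drops to 13.8 or below by 4 h in every genotype, and ASNS at 8 h is highest in the sgNS+EV libraries (117.6 and 126.6).

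Whether the fall over 8 h itself differed between the genotypes was tested as the change in sgQKI+EV minus that in sgNS+EV cells. For 36 of 37 genes this difference was below 0, with a median of -0.29 against -0.14 for all genes. None of the 37 passed in limma after adjustment (0.677% of all genes did). At an unadjusted p under 0.05, 23 were lower, and the share of all genes at that threshold is not given here. PSAT1 came closest with -0.49 ± 0.12 (adjusted p = 0.0530), then ATF4 with -0.46 ± 0.11 (0.0607) and DDIT4 with -0.54 ± 0.14 (0.0649). Fitted on the 4 compared groups alone, 21 genes passed, and 8 passed without the QKI7-WT libraries at 4 h, an alternative added after the data were seen. The share of all genes that passed is not given for either fit.

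By interval, the early difference was called in 3 regulators, SLC38A2 and PYCR1. The late one was called in ATF4, 3 transporters, 4 synthesis enzymes, PYCR1 among them, and 6 synthetases. Between 0 and 4 h the change was lower in sgQKI+EV than in sgNS+EV cells for 4 genes (8.89% of all genes), DDIT4 (-0.66), EIF2AK3 (-0.62), SLC38A2 (-0.58) and CEBPG (-0.37), and higher for PYCR1 (0.62; 1.80% of all genes). Between 4 and 8 h it was lower for 14 genes (11.6%), led by SLC3A2 (-0.72), PYCR1 (-0.66), SLC1A5 (-0.63), SLC7A5 (-0.61) and SHMT2 (-0.60). None of these 19 differences passed with each library left out in turn. Both intervals use the same 4 h libraries, so a high value at 4 h raises the first difference and lowers the second.

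PYCR1, which completes proline synthesis, was called in both intervals, in opposite directions. It read 180.6 and 192.6 at 0 h, 130.0 and 145.2 at 4 h, and 150.9 and 177.4 at 8 h in sgNS+EV cells, against 163.0 and 163.4 at 0 h, 199.8 and 171.4 at 4 h, and 146.0 and 132.1 at 8 h in sgQKI+EV cells. It was lowest at 4 h in the control and highest at 4 h in the sgQKI+EV cells.

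The third question was what the QKI7 constructs did. Compared with sgQKI+EV cells, QKI7-WT changed 0 of the 37 genes at 0 h (0.0877% of all genes passed in limma, and ASNS alone of the 37 was higher at an unadjusted p under 0.05). At 8 h it again changed 0 (0.526% of all genes), with a median log2 difference of 0.22 against 0.09 for all genes. At an unadjusted p under 0.05, 22 of the 37 were higher, and the share of all genes at that threshold is not given here. DDIT4 had the smallest adjusted p, 0.0654, for a log2 difference of 0.40 ± 0.10, and ASNS (0.32 ± 0.08) and ATF4 (0.30 ± 0.08) followed. ATF4 read 271.4 and 249.6 with QKI7-WT and 218.3 and 204.8 in sgQKI+EV cells at 8 h, without overlap. Fitted on the compared groups alone, 21 genes passed at 8 h, and the share of all genes is not given for that fit.

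At 4 h, 23 genes were higher with QKI7-WT than in sgQKI+EV cells (37.7% of all genes were), with a median log2 difference of 0.28 against 0.20 for all genes. DDIT3 (0.57), SLC38A2 (0.54), EIF2AK3 (0.51), PPP1R15A (0.45), XPOT (0.44) and TARS (0.44) had the largest differences. The count was 1 on library totals, 5 after quantile normalisation and 0 on the compared groups alone, and 9 genes passed with each library left out in turn. This comparison rests on the QKI7-WT 4 h pair, the pair with the lowest replicate correlation.

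The QKI7-WT libraries at 4 h were also where tRNA charging and export stood highest against 0 h. The percent of the 0 h signal at 4 h had a median of 108.0% over the 14 genes with QKI7-WT (102.0% to 120.0%), against 92.3% in sgNS+EV, 92.9% in sgQKI+EV and 90.5% in QKI7-△KH cells. The median over all genes was also highest with QKI7-WT, at 84.5% against 79.2%, 74.6% and 69.7% in the same order. YARS (log2 change 0.27), GARS (0.22) and TARS (0.19) were higher at 4 h than at 0 h with QKI7-WT (2.66% of all genes were), and 12 genes were lower (42.9%). YARS read 134.1 and 149.9 at 0 h and 166.1 and 176.1 at 4 h, without overlap. The 3 rises did not pass when the compared groups were fitted alone. At 8 h the tRNA genes with QKI7-WT were at a median of 75.2%.

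**Figure D5:**
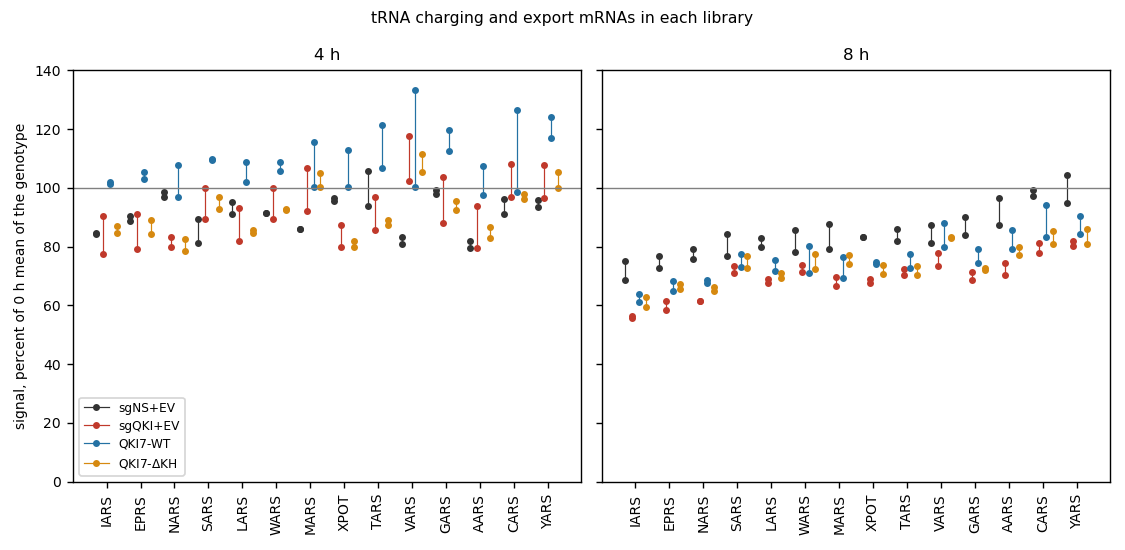
Signal of the 14 tRNA charging and export genes at 4 h (left) and 8 h (right) as percent of the 0 h mean of the same genotype; linked points are the 2 libraries of a genotype. At 4 h the QKI7-WT libraries lie highest for most genes (median 108.0%), and at 8 h the sgNS+EV libraries do (median 83.5%).

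Compared with sgQKI+EV cells, QKI7-△KH had 8 genes higher at 0 h (12.6% of all genes were): TARS (0.34), ALDH18A1 (0.33), GARS (0.25), IARS (0.24), SLC7A1 (0.23), NARS (0.22), LARS (0.21) and XPOT (0.21). The median log2 difference of the 37 genes was 0.19, the same as over all genes. ALDH18A1 read 106.4 and 98.6 with QKI7-△KH against 80.6 and 82.1. At 8 h 25 genes were higher (44.2% of all genes), with a median of 0.29 against 0.25. Both counts were 0 on library totals and after quantile normalisation, and leaving out 1 library gave 0 to 3 genes at 0 h and 9 to 25 at 8 h. The 8 h count was 9 without the QKI7-△KH replicate 2 and 11 without the sgQKI+EV replicate 2.

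QKI7-WT and QKI7-△KH, which differ in the KH domain by their names, were also compared directly. In limma 0 of the 37 genes differed at 0 h (3.75% of all genes did; 6 of the 37 were lower with QKI7-WT at an unadjusted p under 0.05). At 8 h 0 differed as well (4.89%; 1 higher and 5 lower at an unadjusted p under 0.05). At 4 h PPP1R15A (0.47, adjusted p = 0.0498) and XPOT (0.28, adjusted p = 0.0406) were higher with QKI7-WT (0.821% of all genes were), and neither passed with each library left out or with the compared groups alone. XPOT read 114.1 and 101.6 with QKI7-WT and 89.7 and 87.3 with QKI7-△KH at 4 h.

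The fall over 8 h did not differ past the threshold for any of the 37 genes between QKI7-WT and QKI7-△KH, between QKI7-WT and sgQKI+EV or between QKI7-△KH and sgQKI+EV cells (0% of all genes in each). At an unadjusted p under 0.05, 1 gene was higher in the first of these and 2 in each of the others. DDIT4 had the smallest p in both comparisons with sgQKI+EV cells, with log2 differences of 0.47 ± 0.14 for QKI7-WT and 0.41 ± 0.14 for QKI7-△KH. The 2 comparisons share the sgQKI+EV libraries. By interval, the change from 0 to 4 h was higher with QKI7-WT than with QKI7-△KH for 9 genes (16.0% of all genes), among them PPP1R15A (0.63), SLC38A2 (0.42) and XPOT (0.39). XPOT, MTHFD2, TARS, LARS and NARS stood at 102.0% to 114.0% of their 0 h mean at 4 h with QKI7-WT. The change from 4 to 8 h was lower for 5 genes (16.1%), among them SLC38A2 (-0.54) and XPOT (-0.35). None of the 14 differences passed with each library left out in turn.

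Against sgNS+EV cells at 8 h, fewer genes were lower in the genotypes with a construct than the 26 in sgQKI+EV cells, although the difference between these counts was not tested. With QKI7-WT they were DDIT4 (-0.65), DDIT3 (-0.50), PPP1R15A (-0.43) and SLC38A2 (-0.42), where 6.27% of all genes were lower. With QKI7-△KH they were DDIT4 (-0.74), PPP1R15A (-0.52) and ATF4 (-0.40), where 1.78% of all genes were. In limma 0 genes were higher in either, with 0 and 4 at an unadjusted p under 0.05 and 0.303% and 2.87% of all genes higher. DDIT4 alone passed with each library left out in both comparisons, which share the sgNS+EV libraries.

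QKI binds RNA at a core of letters that often has a shorter partner site nearby, so the transcripts were searched for these letters. The core letters were ACTAAC or ACTAAT on the sense strand of each gene's longest coding GENCODE 29 transcript, and the 2-part form adds TAAC or TAAT within 1 to 20 bases. Of the 37 genes 16 held a core (43.2%, against 49.0% of 11604 genes) and 6 held the 2-part form (16.2% against 22.0%). By role the core was in 5 of 10 regulators, 1 of 8 synthesis enzymes, 4 of 5 transporters and 6 of 14 tRNA genes. One 2-part match for each of the 6 genes is shown with both parts in capitals.

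EIF2AK3: TAATaaACTAAC
VLDLR: ACTAACaaactgaTAAC
SLC7A1: TAACatattttgataaatACTAAC
SLC7A5: TAACgtcttACTAAT
TARS: TAATttcttatgtggataaatACTAAT
XPOT: ACTAACcactgttcaacaacagcTAAT

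XPOT held 3 such matches, starting at bases 739, 2376 and 5112 of 6414, and the first is printed. At 8 h, 3 of the 6 genes with the 2-part letters and 23 of the 31 without them were lower in sgQKI+EV than in sgNS+EV cells, where 34.0% of all genes were, with median log2 differences of -0.24 and -0.27. A match says nothing of binding.

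Related genes outside the list of 37 were followed in 4 further lists over 8 h in sgNS+EV cells, where 88.2% of all genes fell and their median log2 change was -0.70. Of 14 genes for eIF2, eIF2B, their kinases and phosphatase, 12 fell, with a median log2 change of -0.60. PPP1R15B, the constitutive counterpart of PPP1R15A, fell most (-2.25). Of 23 further targets of ATF4 or CHOP, 18 fell and 1 rose: BBC3, which promotes cell death, changed by -3.00, the secreted stress signal GDF15 by -2.54 and HERPUD1, of the degradation pathway for misfolded proteins, by -1.97, while NUPR1 rose by 0.43. The 10 other cytosolic synthetases and their scaffold proteins had a median of -0.51, with 9 lower, among them RARS (-0.91) and FARSA (-0.77). All 16 mitochondrial synthetases measured fell, with a median of -0.65, and PARS2 (-1.88) and MARS2 (-1.73) fell most.

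Between sgQKI+EV and sgNS+EV cells at 0 h, only 3 further targets differed in these 4 lists, GDF15 (-0.75), KLHL24 (-0.47) and MAP1LC3B (-0.27), all lower, as were 1.37% of all genes. GDF15 read 27.9 ± 0.18 (mean and SD, n = 2) in sgNS+EV cells at 0 h, 16.9 and 15.4 in the sgQKI+EV libraries, 15.8 and 18.5 with QKI7-WT and 19.2 and 18.1 with QKI7-△KH. As for DDIT4, every library with the QKI guide lay below both sgNS+EV libraries. At 8 h, 8 of 14 genes of the eIF2 list, 12 of 23 further targets, 5 of 10 further cytosolic and 7 of 16 mitochondrial synthetase genes were lower in sgQKI+EV cells, against 34.0% of all genes, with GDF15 at -0.87, PCK2 at -0.57, TARS2 at -0.44, EIF2S3 at -0.43 and QARS at -0.43.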

How the data were processed

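U2OS poly(A) libraries were prepared with a stranded mRNA kit and sequenced on an Illumina NovaSeq, per the labels' protocols. The authors deposited 1 table of signal normalised to ERCC spike-ins for 24 libraries. STAR, RSEM and the GRCh38 build are named in the submitters' processing notes, without versions, and how the spike-ins entered the scale is not given in the sources used here. Each of 12 groups (4 genotypes at 3 times) had 2 libraries.

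Spike-in rows were set aside, and limma 3.58.1 (R 4.3.3) was fitted to log2(signal + 1) of 12547 genes in all 24 libraries, with 1 mean per group and an intensity trend. Tests are two-sided, with Benjamini-Hochberg adjustment over all genes and a threshold of 0.05. Shares of all genes called beside the counts belong to this fit and threshold. None is given for unadjusted p-values or for the alternatives below. Replicate error is given as SE of the fit. Tested on simulated data for the 0 to 8 h change in sgNS+EV cells (12547 genes), the fit recovered 65 of 100 genes changed by 0.5 on the log2 scale and 98 of 100 changed by 1, and called 10 unchanged genes. The simulation left most genes unchanged and drew noise independently for each gene. In the data 88.2% of all genes fell in that comparison, so these numbers may not carry over.

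The 37 genes and the other lists were chosen with earlier results of these data known. Any of the 37 could be named. Library values were meant for the genes with the largest change over 8 h in each role and direction and for genes past the threshold between genotypes; the text gives a part of these, picked with the values in view. Up to 3 genes with the largest change per direction were named from each further list, and promoter windows follow the size of the 8 h change. Alternatives were library totals without ribosomal RNA, quantile normalisation, a pseudocount of 0.1, a mean signal of at least 5, a replicate block, the compared groups alone and each library left out. Gene positions are from GENCODE 29 and promoters from RefSeq, whose table held 31 of the 37 genes.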

Additional observations from a re-analysis of the deposited data

Results flagged for a closer look

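The change over time of 25 of the 37 genes differed between genotypes in at least 1 interval by a test of the difference itself (limma, adjusted p under 0.05). The share of all genes with such a difference in at least 1 interval is not given here, and over 0 to 8 h none of the 37 differed past the threshold. None of the 33 differences by interval passed with each library left out in turn. From 0 to 4 h, the log2 change in sgQKI+EV minus that in sgNS+EV cells was -0.66 for DDIT4, -0.62 for EIF2AK3, -0.58 for SLC38A2, -0.37 for CEBPG (8.89% of all genes were lower) and 0.62 for PYCR1 (1.80% were higher).

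From 4 to 8 h the same difference was -0.72 for SLC3A2, -0.66 for PYCR1, -0.63 for SLC1A5, -0.61 for SLC7A5, -0.60 for SHMT2, -0.57 for VARS, -0.53 for PHGDH, -0.50 for ASNS, -0.49 for MARS, -0.46 for ATF4, -0.44 for AARS, -0.43 for CARS, -0.40 for YARS and -0.34 for IARS, where 11.6% of all genes were lower.

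Between QKI7-WT and QKI7-△KH, the difference from 0 to 4 h was 0.30 for LARS, 0.32 for SLC7A1, 0.34 for NARS, 0.37 for CEBPG, TARS and MTHFD2, 0.39 for XPOT, 0.42 for SLC38A2 and 0.63 for PPP1R15A, where 16.0% of all genes were higher. From 4 to 8 h it was -0.54 for SLC38A2, -0.35 for XPOT, -0.33 for SLC7A1, -0.32 for MTHFD2 and -0.28 for NARS, where 16.1% of all genes were lower. The QKI7-WT libraries at 4 h, which enter these 14 differences, had the lowest replicate correlation (0.9889).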

How the results depend on the processing

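The counts of the 37 genes past the threshold that moved by over 1.5 times are given here by setting. The cause was not tested, and no share of all genes is given for these settings. On library totals they were 20, 20 and 22 for the 0 to 8 h change in sgQKI+EV, QKI7-WT and QKI7-△KH cells, and 5, 8 and 7 for those genotypes against sgNS+EV at 0 h. They were 7 and 8 for sgQKI+EV and QKI7-△KH against sgNS+EV at 8 h, 1 and 1 for QKI7-WT against QKI7-△KH at 0 and 8 h, and 0 at 4 h. QKI7-△KH against sgQKI+EV gave 0 at 0 and 8 h, and QKI7-WT against sgQKI+EV 1 at 4 h. The differences of sgQKI+EV from sgNS+EV in the change gave 1 over 8 h, 13 from 0 to 4 h and 9 from 4 to 8 h, and those of QKI7-WT from QKI7-△KH 0 in both intervals.

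After quantile normalisation the counts were 7, 11 and 1 at 0 h for sgQKI+EV against sgNS+EV, QKI7-WT against sgNS+EV and QKI7-WT against sgQKI+EV, and 7 and 11 at 8 h for sgQKI+EV and QKI7-△KH against sgNS+EV. QKI7-WT against QKI7-△KH gave 1, 0 and 2 at 0, 4 and 8 h, QKI7-△KH against sgQKI+EV 0 at 0 and 8 h, and QKI7-WT against sgQKI+EV 5 at 4 h. The change from 4 to 8 h minus that from 0 to 4 h in sgNS+EV cells gave 19. The differences of sgQKI+EV from sgNS+EV in the change gave 2 over 8 h, 12 from 0 to 4 h and 0 from 4 to 8 h, and those of QKI7-WT from QKI7-△KH 0 in both intervals.

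With the compared groups alone the counts were 7, 1 and 20 at 0 h for sgQKI+EV against sgNS+EV, QKI7-WT against sgNS+EV and QKI7-△KH against sgQKI+EV. They were 0 at 4 h and 21 at 8 h for QKI7-WT against sgQKI+EV, 0 at 4 h and 2 at 8 h for QKI7-WT against QKI7-△KH, 10 at 8 h for QKI7-△KH against sgNS+EV and 9 for the 0 to 4 h change with QKI7-WT. The change over 8 h and from 0 to 4 h differed in 21 and 11 genes between sgQKI+EV and sgNS+EV, and 0 differed by interval between QKI7-WT and QKI7-△KH. Without the QKI7-WT libraries at 4 h, a setting added after the data were seen, the counts were 3 and 2 for QKI7-WT against QKI7-△KH at 0 and 8 h, 15 for QKI7-△KH against sgQKI+EV at 0 h, 6 for QKI7-WT against sgQKI+EV and 7 for QKI7-△KH against sgNS+EV at 8 h, and 8 and 10 for the difference of sgQKI+EV from sgNS+EV over 8 h and from 0 to 4 h.

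A pseudocount of 0.1 gave 2 and a mean signal of at least 5 gave 1 for that difference over 8 h, and they gave 6 and 5 for QKI7-△KH against sgNS+EV at 8 h. The signal minimum gave 8 for the 4 to 8 h difference between the constructs. With the replicate number as a block, the counts were 1 for the difference of sgQKI+EV from sgNS+EV over 8 h, 4 and 1 for QKI7-WT against QKI7-△KH at 4 and 8 h, and 8 for their 4 to 8 h difference. No label says that the replicate numbers pair the libraries. Over 66 pairs of groups, the correlation of same-numbered deviations ran from -0.424 to 0.483 and was over 0.1 in 20. With 2 libraries per group these correlations cannot decide whether same-numbered libraries belong together.

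With each library of the compared groups left out in turn, the counts ran from 23 to 29 for the 0 to 8 h change in sgNS+EV cells, 28 to 37 with QKI7-WT and 31 to 36 with QKI7-△KH. They ran from 16 to 21 for the 0 to 4 h and 13 to 20 for the 4 to 8 h change in sgNS+EV cells, 3 to 7 for the second of these minus the first, and 12 to 17 for the 0 to 4 h change with QKI7-WT. Against sgNS+EV, sgQKI+EV gave 0 to 1, 7 to 14 and 11 to 20 at 0, 4 and 8 h, QKI7-WT 0 to 2 at 0 h and 1 to 3 at 8 h, and QKI7-△KH 3 to 9 at 0 h and 1 to 3 at 8 h. QKI7-△KH against sgQKI+EV gave 0 to 3 at 0 h and 9 to 25 at 8 h, QKI7-WT against sgQKI+EV 12 to 24 at 4 h and QKI7-WT against QKI7-△KH 0 to 11 at 4 h. The differences by interval gave 0 to 4 and 0 to 19 between sgQKI+EV and sgNS+EV and 0 to 11 in both between the constructs. All differences over 8 h gave 0. Where a group was left with 1 library, that library is assumed to vary like the other groups.

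Some single genes changed sign. For the 0 to 8 h change in sgNS+EV cells, EPRS was 0.034 on library totals and 0.12 after quantile normalisation, and CEBPG was 0.25 after the latter. For sgQKI+EV against sgNS+EV at 8 h, library totals gave PSAT1 0.0086, ALDH18A1 0.0439, GARS 0.0004, LARS 0.001 and TARS 0.0073. Quantile normalisation gave PSAT1 0.0379, ALDH18A1 0.07, GARS 0.0309, LARS 0.0411, TARS 0.0349, NARS 0.0048 and WARS 0.0228, and IARS 0.0211 for the 4 to 8 h difference. The depth is unknown, so no counting error can be given, and 2 libraries per group limit the precision.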
